A study of Homo sapiens and Mus musculus with 13 samples.

Results

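Expression of 10 genes of the epithelial-mesenchymal transition was examined in 2 sets of RNA-seq libraries. The genes were taken by name, as the human symbol in the table of 7 cell lines and as the mouse symbol in the table of 6 tumours, and all 10 were found among 24523 human and 55228 mouse symbols. Of the 10, 9 in each set reached the mean of 0.5 FPKM asked of tested genes, TWIST1 falling short in the lines and Cdh2 in the tumours. They comprise 5 transcription factors (SNAI1, SNAI2, ZEB1, ZEB2 and TWIST1), the mesenchymal products VIM, FN1 and CDH2, and the epithelial products CDH1 and EPCAM. The study asked how TRIM11, a ubiquitin E3 ligase, and KDM5C, a demethylase of histone H3 lysine 4, act in breast cancer.

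All 7 cell lines were MDA-MB-231, a human triple-negative breast cancer line. The single Control line carried a guide RNA against GFP. TRIM11-KD1 and TRIM11-KD2 carried TRIM11 guide 1 and guide 2, and KDM5C-KD1 and KDM5C-KD2 carried KDM5C guide 1 and guide 2. In the double knockdowns, DKD1 combined TRIM11 guide 1 with KDM5C guide 2, and DKD2 combined TRIM11 guide 2 with KDM5C guide 2. The lines were made by lentiviral Cas9 and puromycin selection, so the libraries of a group differ in their guide and are no repeat cultures of 1 line, with the exception that both DKD lines share KDM5C guide 2. The mouse set was 3 Trim11+/+ and 3 Trim11+/- mammary tumours from mice of 3 months on an MMTV-PyVT background, in which the mammary tumour virus promoter drives a viral oncogene. In the Trim11+/- animals exons 2 to 6 of 1 Trim11 allele were deleted with CRISPR/Cas9. Per the labels the mice were hybrids, the Trim11+/- parent being C57BL/6N and the tumour-prone parent FVB/N-Tg (MMTV-PyVT), with a strain number running from 634Mul/J in the first tumour to 639Mul/J in the last, while the methods name 634Mul/J alone. The labels do not say whether the 3 tumours of a genotype came from separate mice, or the lines from separate cultures, and p-values measure only the spread between these libraries.

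Epithelial cells hold their neighbours through E-cadherin and the adhesion molecule EPCAM. In an epithelial-mesenchymal transition, factors of the SNAI, ZEB and TWIST families bind E-box sequences in promoters such as that of E-cadherin and repress them, and the cell gains vimentin filaments, fibronectin and often N-cadherin. In mammary tumours the same mesenchymal genes are also expressed by stromal cells, and SNAI2 and vimentin belong to the normal basal layer of the mammary gland.

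Levels are given in FPKM, fragments scaled to transcript length and library size, so that genes of different length can be compared within a table. The tumour values were whole reads at depths between 8793200 and 11117126 reads per library, and the depth of the cell lines is unknown. In the lines TRIM11 mRNA was 12.6 FPKM in Control, 10.6 in TRIM11-KD2 and 9.38 in DKD2, but 13.4 in the library labelled TRIM11-KD1 and 16.1 in that labelled DKD1. KDM5C mRNA was 0.622 to 0.749 of Control in the 4 lines with a KDM5C guide. Trim11 mRNA was 22.8 to 24.0 FPKM in the Trim11+/- tumours and 35.8 to 39.2 in the Trim11+/+ tumours. Of genes chosen to describe MDA-MB-231, ESR1 was at most 0.0234 FPKM and PGR was listed at 0 in all 7 lines. CD44 was 188.4 to 347.1, EGFR 41.7 to 63.3 and AXL 405.5 to 538.5 FPKM. ERBB2 mRNA was 17.8 to 23.7 FPKM, and CD24 was 0.282 to 10.9 FPKM.

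The E-box CANNTG, and its form CACCTG or CAGGTG that SNAI and ZEB proteins bind best, was looked for in the 250 bases upstream of the RefSeq starts of the members in GRCh38.p14, on both strands, which read the same for these motifs. Starts were found for 5 of the 10 members (ZEB1, ZEB2, VIM, FN1 and CDH2). No entry was found for SNAI1, SNAI2, TWIST1, CDH1 and EPCAM. The windows of ZEB1, ZEB2, VIM and FN1 are shown, whose mouse genes were tested in the tumours and had a lower mean in Trim11+/-. Cdh2 also had a lower mean but was below the filter. No mouse promoter was examined, and the bearing of these motifs on the tumour levels was not tested. Capitals mark each CANNTG, of which CACCTG and CAGGTG are special cases. The window of ZEB1 is that of the most upstream of its 7 starts.
ZEB1 (chr10:31318167-31318416, plus strand): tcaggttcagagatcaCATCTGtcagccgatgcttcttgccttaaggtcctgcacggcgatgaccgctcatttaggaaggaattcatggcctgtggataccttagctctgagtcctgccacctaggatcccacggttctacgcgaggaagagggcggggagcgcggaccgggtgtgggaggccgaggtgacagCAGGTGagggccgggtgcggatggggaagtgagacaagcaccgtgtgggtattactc
ZEB2 (chr2:144520120-144520369, minus strand): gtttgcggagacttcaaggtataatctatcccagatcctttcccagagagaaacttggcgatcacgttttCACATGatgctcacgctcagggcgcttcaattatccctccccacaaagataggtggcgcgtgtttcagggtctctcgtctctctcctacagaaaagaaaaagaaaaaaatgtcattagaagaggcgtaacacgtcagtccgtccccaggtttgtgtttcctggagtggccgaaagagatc
VIM (chr10:17227991-17228240, plus strand): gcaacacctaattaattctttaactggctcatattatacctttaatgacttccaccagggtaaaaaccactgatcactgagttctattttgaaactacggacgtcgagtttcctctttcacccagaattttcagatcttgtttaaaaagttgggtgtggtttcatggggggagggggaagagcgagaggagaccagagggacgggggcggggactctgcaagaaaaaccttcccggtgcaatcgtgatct
FN1 (chr2:215436069-215436318, minus strand): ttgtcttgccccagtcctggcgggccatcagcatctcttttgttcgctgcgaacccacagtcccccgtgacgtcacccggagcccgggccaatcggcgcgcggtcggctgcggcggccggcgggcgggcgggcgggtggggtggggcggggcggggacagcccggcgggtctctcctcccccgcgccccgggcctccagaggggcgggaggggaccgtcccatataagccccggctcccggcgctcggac
This ZEB1 window held 2 E-boxes, CATCTG and CAGGTG, and the ZEB2 window held 1, CACATG. VIM and FN1 held 0. Over all 7 ZEB1 windows 4 held a CANNTG and 3 did not, and 2 held a CACCTG or CAGGTG. Of the 2 CDH2 windows 1 held a CANNTG and 0 a CACCTG or CAGGTG. Of all 35116 RefSeq windows of this length 61.8% held a CANNTG and 17.5% a CACCTG or CAGGTG, and these matches are a description of the letters in each window.

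In the cell lines the mesenchymal products VIM and FN1 led the members and the epithelial cadherin was among the lowest. VIM, the intermediate filament vimentin, had a median of 1134 FPKM and was the highest member in all 7 lines, and FN1, the matrix protein fibronectin, followed with a median of 77.1 FPKM. SNAI2 was next at a median of 33.1 FPKM, with a range of 22.5 to 53.6 that overlapped the range of FN1 at 43.0 to 88.7. SNAI1, EPCAM and ZEB1 had medians of 13, 10.3 and 9.73 FPKM and overlapping ranges. ZEB2 (median 2.12), CDH1, the epithelial cadherin (1.07), and CDH2, the neural cadherin (0.797), were low and also overlapped. TWIST1 was listed at 0 in all 7 lines. Within a line VIM was 533 to 1915 times the level of CDH1 and 93.3 to 257.8 times that of EPCAM.

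**Figure D1:**
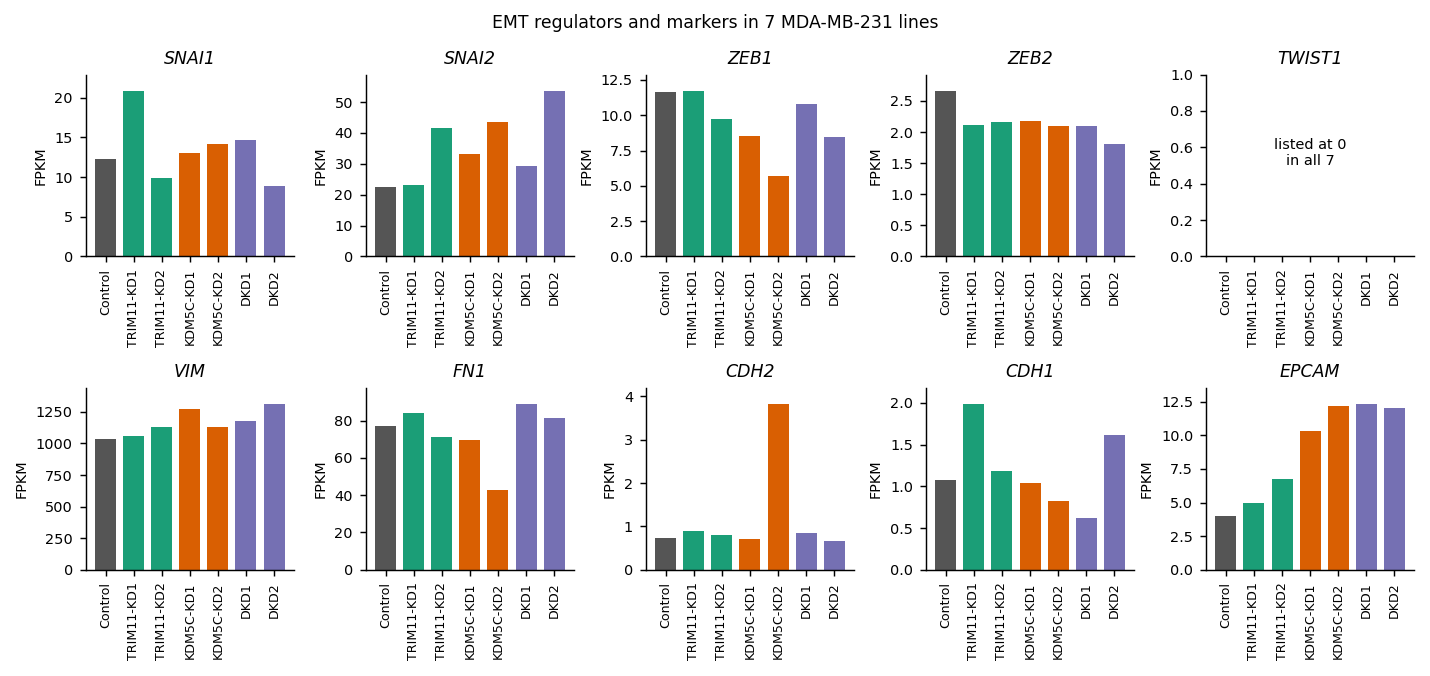
FPKM of the 10 members (vertical axes, each starting at 0) in the 7 MDA-MB-231 lines, 1 bar per library, coloured by group. EPCAM is 10.3 to 12.3 in the 4 lines with a KDM5C guide and 4.03 to 6.77 in the other 3, CDH2 is 3.82 in KDM5C-KD2 alone, and TWIST1 is listed at 0.

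EPCAM, the epithelial cell adhesion molecule, was the member with the clearest separation of the lines by KDM5C guide. Its level was 4.03 FPKM in Control, 5.0 and 6.77 in TRIM11-KD1 and TRIM11-KD2, 10.3 and 12.1 in the KDM5C-KD lines, and 12.3 and 12.0 in the DKD lines. All 4 lines with a KDM5C guide lay above all 3 without one, with 10.3 FPKM as the lowest of the former and 6.77 as the highest of the latter. Relative to Control the ratios were 2.56 and 3.02 in KDM5C-KD, 3.05 and 2.98 in DKD, and 1.24 and 1.68 in TRIM11-KD. EPCAM lies on chromosome 2 of hg19 from 47572297 to 47614740.

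The 7 lines were fitted by limma on log2(FPKM + 1) with the presence of a KDM5C guide and of a TRIM11 guide as terms. For the KDM5C guide the difference of EPCAM was 1.08 (standard error 0.14, unadjusted p = 9.32e-05), and after Benjamini-Hochberg adjustment over 12636 genes p was 0.199. EPCAM was 1 of 9 members tested with a higher level and an unadjusted p under 0.05, where 5.87% of all genes met this rule, and no member passed the adjusted threshold, which 0.00791% of genes passed. Over the 14 alternatives its difference stayed between 0.95 and 1.21 and its unadjusted p between 6.15e-05 and 0.00145. The effect of the KDM5C guide on EPCAM with and without a TRIM11 guide differed by -0.33 (standard error 0.27, unadjusted p = 0.272).

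VIM was the other member whose lines did not overlap by KDM5C guide. It was 1038 FPKM in Control, 1056 and 1127 in TRIM11-KD, 1273 and 1134 in KDM5C-KD, and 1179 and 1309 in DKD. Thus 2 of 9 members were higher in every line with the guide, against 5.64% of all genes. The step was small: the closest lines, KDM5C-KD2 and TRIM11-KD2, were 1134 and 1127 FPKM, and the fitted difference was 0.20 (95% interval -0.04 to 0.43, unadjusted p = 0.0878).

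Of the regulators, ZEB1, a zinc finger repressor of epithelial genes, had its lowest value in KDM5C-KD2. It was 11.7 FPKM in Control, 11.7 and 9.73 in TRIM11-KD, 8.51 and 5.67 in KDM5C-KD, and 10.8 and 8.45 in DKD. KDM5C-KD1 and DKD2 were close to each other, and DKD1 lay within the range of the lines without a KDM5C guide. The fitted difference was -0.36 (standard error 0.18, unadjusted p = 0.0939), and without DKD1 it was -0.49 (unadjusted p = 0.0387). Without DKD1 SNAI2 also differed, at 0.75 (unadjusted p = 0.0176), which made 3 members with EPCAM, and without TRIM11-KD2 the count was 2, EPCAM and SNAI2 (unadjusted p = 0.0230). With all 7 lines SNAI2 was at 0.49 (unadjusted p = 0.113). ZEB2, a relative of ZEB1, was 2.66 FPKM in Control and 1.81 to 2.18 in the 6 knockdown lines, all of them below the single Control value, with ratios of 0.681 to 0.819.

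SNAI2, also called Slug, differed between the lines of TRIM11 guide 1 and guide 2. It was 22.5 FPKM in Control and 33.1 and 43.6 in the KDM5C-KD lines. With TRIM11 guide 1 it was 23.2 in TRIM11-KD1 and 29.2 in DKD1, and with guide 2 it was 41.7 in TRIM11-KD2 and 53.6 in DKD2. Guide 2 lines were thus 1.80 times the guide 1 line in TRIM11-KD and 1.83 times in DKD. SNAI1, or Snail, had the opposite order, with 20.8 and 14.6 FPKM for guide 1 and 9.93 and 8.82 for guide 2, beside 12.3 in Control and 13 and 14.2 in KDM5C-KD. TRIM11 mRNA was also lower with guide 2 than with guide 1, as given above, and its part in these values was not tested.

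For the TRIM11 guide over all 7 lines, 0 of 9 members had an unadjusted p under 0.05, where 10.7% of all genes did, and 0% of genes passed the adjusted threshold. The difference of SNAI2 was 0.21 (95% interval -0.43 to 0.86) and that of SNAI1 was -0.06 (95% interval -0.70 to 0.58). Without both libraries of TRIM11 guide 1, SNAI2 differed by 0.65 (unadjusted p = 0.0121) and SNAI1 by -0.45 (unadjusted p = 0.0212), so 2 members then had an unadjusted p under 0.05. FN1 was nearest to the threshold with all lines, at 0.38 (standard error 0.20, unadjusted p = 0.0996). Control was the only library without any guide against TRIM11 or KDM5C. Without Control the fit is the same as that of DKD against KDM5C-KD, given next, and the unadjusted p of FN1 was 0.0337.

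The next comparison asked whether a TRIM11 guide added to a KDM5C guide moved the members, over the 6 knockdown lines. FN1 was 69.4 and 43.0 FPKM in the KDM5C-KD lines and 88.7 and 81.3 in the DKD lines, beside 77.1 in Control and 84.0 and 71.3 in TRIM11-KD. Both DKD lines lay above both KDM5C-KD lines, and KDM5C-KD2 was the lowest of the 7. The fitted difference was 0.63 (standard error 0.23, unadjusted p = 0.0337, adjusted p = 0.396). FN1 was 1 of 9 members that were higher with an unadjusted p under 0.05, where 5.86% of all genes met the rule and 0% passed the adjusted threshold. FN1 was also the 1 member that was higher without overlap and ZEB2 the 1 member that was lower without overlap, at background shares of 21.3% and 22.0%. ZEB2 was 2.18 and 2.1 in KDM5C-KD and 2.09 and 1.81 in DKD (difference -0.09, 95% interval -0.47 to 0.29).

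These values rested on single libraries, and where 1 line of a group was left the fit takes it to vary like the other groups. The number of members with an unadjusted p under 0.05 was 0 when any of DKD1, DKD2, KDM5C-KD2, TRIM11-KD1 or TRIM11-KD2 was left out. Without KDM5C-KD1 it was 3, with FN1 at 0.97 (unadjusted p = 0.00202), ZEB1 at 0.66 (unadjusted p = 0.0307) and CDH2 at -1.45 (unadjusted p = 0.000962). The remaining line KDM5C-KD2 carries the same KDM5C guide as both DKD lines. EPCAM differed by 0.11 (95% interval -0.31 to 0.53) between DKD and KDM5C-KD.

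CDH2, or N-cadherin, had the widest range of any member over the lines. It was 0.727 FPKM in Control, 0.903 and 0.797 in TRIM11-KD, 0.721 in KDM5C-KD1, 3.82 in KDM5C-KD2, and 0.859 and 0.673 in DKD. KDM5C-KD2 thus stood 5.25 times above Control while the other 5 knockdown lines were within 0.926 and 1.24 of it. Both DKD lines share the KDM5C guide of KDM5C-KD2 and did not share its CDH2 level. Among 1808 genes with a mean of at least 1 FPKM and a log2 range of at least 1, those most like CDH2 over the 7 lines by Pearson r on log2(FPKM + 1) were RNVU1-19, a variant U1 small nuclear RNA (0.993), the cancer-testis antigen MAGEA1 (0.992), the actin-severing protein SCIN (0.985), MAGEA11 (0.973) and FAM212B (0.961). All 5 were highest in KDM5C-KD2, which follows from their choice by likeness to CDH2. MAGEA1 was 7.22 FPKM there and at most 0.0352 elsewhere, and SCIN 18.7 and at most 0.542 elsewhere. In the same library CD24, a surface protein of epithelial cells, was 0.282 FPKM, against 2.69 to 10.9 in the other 6 lines.

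CDH1, or E-cadherin, stayed low in all lines. It was 1.07 FPKM in Control, 1.98 and 1.19 in TRIM11-KD, 1.04 and 0.819 in KDM5C-KD, and 0.615 and 1.62 in DKD. The DKD lines held both the lowest and the second highest value, a 2.63-fold gap within a group. Both TRIM11-KD lines were above the single Control value and both KDM5C-KD lines below it. The differences for the KDM5C guide, the TRIM11 guide and DKD were -0.23, 0.18 and 0.09, with intervals that all included 0.

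Set against the single Control, for which no p can be given, EPCAM was the member at least 1.5 times higher in both lines of KDM5C-KD and of DKD. This was 1 of 9 members in KDM5C-KD and 1 of 9 in DKD, where 5.22% and 5.71% of all genes met the rule. In TRIM11-KD 0 of 9 were higher, against 3.25% of genes. None of the 9 was 1.5 times lower in both lines of TRIM11-KD, KDM5C-KD or DKD, against 2.58%, 3.97% and 4.87% of genes. In a single line of a group the fold was also reached upwards by SNAI2 (1.85 in TRIM11-KD2, 1.93 in KDM5C-KD2 and 2.38 in DKD2), by EPCAM (1.68 in TRIM11-KD2) and by CDH2 (5.25 in KDM5C-KD2). SNAI1 and CDH1 reached it in the library labelled TRIM11-KD1 (1.69 and 1.85), and CDH1 also in DKD2 (1.51). Downwards it was reached by ZEB1 (0.486) and FN1 (0.557) in KDM5C-KD2 and by CDH1 (0.574) in DKD1.

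**Figure D2:**
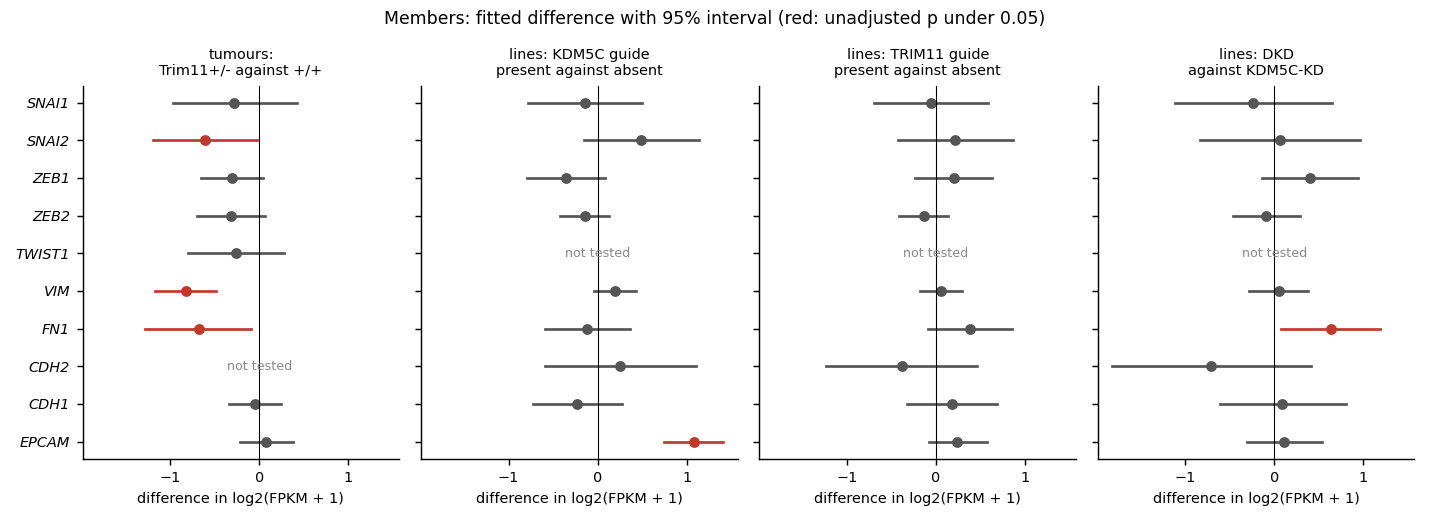
Difference in log2(FPKM + 1) of each member (points) with its 95% interval (lines) in the 4 comparisons tested by limma, in red where the unadjusted p is under 0.05. VIM, FN1 and SNAI2 are red and below 0 in tumours, EPCAM is red at 1.08 for the KDM5C guide, FN1 is red at 0.63 for DKD against KDM5C-KD, and no member is red for the TRIM11 guide.

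In the tumours the epithelial Epcam and Cdh1 stood above Vim and Fn1, while Vim, Fn1, Snai2, Snai1, Zeb1, Zeb2 and Cdh2 kept the order among themselves that they had in the lines. Epcam had a median of 462.6 FPKM, Cdh1 of 95.2, Vim of 34.9 and Fn1 of 15.2, and the range of Vim (20.6 to 49.1) touched that of Fn1 (8.52 to 20.7). Snai2, Snai1 and Twist1 had medians of 3.75, 3.71 and 2.09 with overlapping ranges, followed by Zeb1, Zeb2 and Cdh2 at 1.01, 0.852 and 0.364 FPKM. Within a tumour Cdh1 was 1.80 to 3.98 times the level of Vim. Twist1, which was listed at 0 in the human lines, had 20 to 51 reads per tumour.

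Vim, Snai2, Zeb1 and Zeb2 were lower in every Trim11+/- tumour than in any Trim11+/+ tumour, while the epithelial Cdh1 and Epcam overlapped. None of these differences passed adjustment over all genes. Vim was 41.1, 49.1 and 42.0 FPKM in the Trim11+/+ tumours and 28.7, 24.5 and 20.6 in the Trim11+/- tumours. The groups did not overlap, and the means were 44.1 ± 4.40 (SD, n = 3) and 24.6 ± 4.03 (SD, n = 3), a ratio of 0.558. With 1021 to 2368 reads per tumour, the counting intervals of the Trim11+/- tumours ended at 30.1 FPKM and those of the Trim11+/+ tumours began at 39.4 FPKM (95% Poisson intervals, for counting error only). The difference in log2(FPKM + 1) was -0.82 (standard error 0.14, unadjusted p = 0.000837, adjusted p = 0.437). The two-sided exact permutation test gave p = 0.1, the smallest that 3 tumours against 3 allow. Vim lies on chromosome 2 of mm10 from 13573927 to 13582826.

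Snai2 was 5.34, 4.14 and 3.99 FPKM in the Trim11+/+ tumours and 3.07, 1.52 and 3.50 in the Trim11+/- tumours. Every Trim11+/- tumour was below every Trim11+/+ tumour, with a ratio of means of 0.600 and a difference of -0.61 (standard error 0.24, unadjusted p = 0.0428, adjusted p = 0.713). The lowest value rested on 27 reads in Trim11+/- 2 and the highest on 118 reads. Fn1 was 14.5, 19.0 and 20.7 FPKM in the Trim11+/+ tumours and 15.9, 9.14 and 8.52 in the Trim11+/- tumours. Trim11+/- 1 lay within the Trim11+/+ range, and the difference was -0.68 (standard error 0.25, unadjusted p = 0.0296, adjusted p = 0.693).

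Zeb1 and Zeb2 were separated between the genotypes at low levels. Zeb1 was 1.38, 1.1498 and 1.19 FPKM in the Trim11+/+ tumours and 0.876, 0.842 and 0.725 in the Trim11+/- tumours, on 76 to 155 reads. Zeb2 was 0.933, 1.1 and 0.957 FPKM in the Trim11+/+ tumours and 0.770, 0.557 and 0.484 in the Trim11+/- tumours, on 99 to 225 reads. The ratios of means were 0.656 and 0.607. The fitted differences were -0.30 (unadjusted p = 0.0769) and -0.32 (unadjusted p = 0.0882), with 1 added before taking logs, which shrinks differences at this level. With 0.1 added they were larger, -0.55 and -0.66, but the unadjusted p by limma were no lower, at 0.0792 and 0.094. Without a trend of variance on level both had an unadjusted p under 0.05, 0.0251 and 0.0309. Of the alternatives, 2 of 13 for Zeb1 and 1 of 11 for Zeb2 gave an unadjusted p under 0.05.

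Snai1 and Twist1 overlapped between the genotypes. Snai1 was 2.71, 3.70 and 5.59 FPKM in the Trim11+/+ tumours and 3.83, 3.72 and 1.84 in the Trim11+/- tumours, and Twist1 was 1.86, 3.08 and 2.33 against 2.71, 1.40 and 1.54. Their differences were -0.28 (95% interval -0.97 to 0.42) and -0.26 (95% interval -0.80 to 0.28). Cdh2 was below the filter of 0.5 FPKM and was not tested, with 0.511, 0.463 and 0.210 FPKM against 0.312, 0.282 and 0.415.

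Cdh1 was 107, 88.3 and 93.3 FPKM in the Trim11+/+ tumours and 101, 97.0 and 82.0 in the Trim11+/- tumours. Epcam was 489, 445 and 408 FPKM in the Trim11+/+ tumours and 493, 479 and 446 in the Trim11+/- tumours. The differences were -0.05 (95% interval -0.34 to 0.25) and 0.08 (95% interval -0.21 to 0.38), and both intervals included 0. The ratio of Cdh1 to Vim was 2.61, 1.80 and 2.22 in the Trim11+/+ tumours and 3.51, 3.96 and 3.98 in the Trim11+/- tumours, without overlap. Cdh1 differed little between the genotypes, so this ratio restates the separation of Vim and is no further result.

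**Figure D3:**
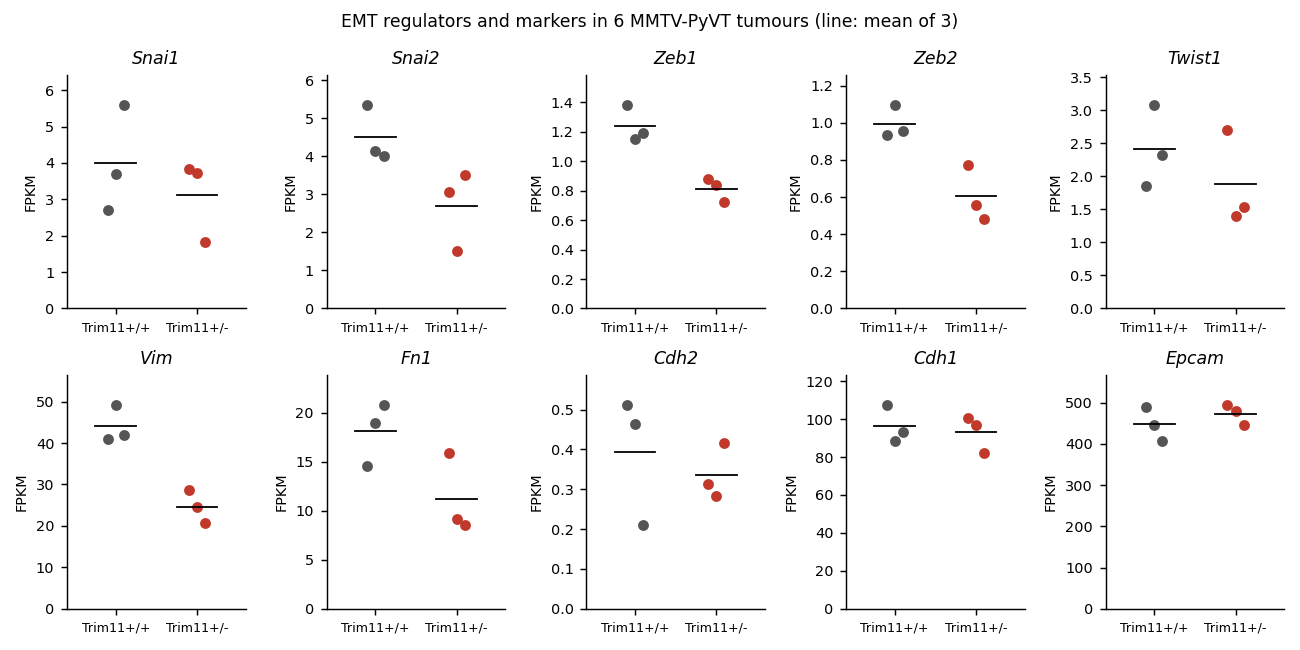
FPKM of the 10 members (vertical axes, each starting at 0) in 3 Trim11+/+ and 3 Trim11+/- tumours, 1 point per tumour with a line at the mean. The Trim11+/- points of Vim, Snai2, Zeb1 and Zeb2 all lie below the Trim11+/+ points, and those of Cdh1 and Epcam overlap them.

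In all, 8 of 9 members tested had a difference below 0, with a median of -0.30 beside 0.00 over 17328 genes. An unadjusted p under 0.05 with a lower level was found for 3 of 9 (Vim, Fn1 and Snai2), against 3.29% of all genes. Separate groups with lower values were found for 4 of 9, against 6.78%. The rule of the study's methods, a ratio of at least 1.5 and an unadjusted p under 0.05, was met downwards by 3 of 9, against 1.87%. No member passed the adjusted threshold, which 0.00577% of genes passed. Without Trim11+/+ 2, Trim11+/+ 3 or Trim11+/- 2 the count with an unadjusted p under 0.05 was 1, and in each case this was Vim. Without any of the other tumours it was 2.

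Markers of other cell types were also compared between the genotypes, and whether they vary with the members was not tested. Of 5 basal and myoepithelial markers (Krt5, Krt14, Trp63, Acta2 and Oxtr), 4 were lower in every Trim11+/- tumour and all 5 had a lower mean, where 6.78% of all tested genes were lower without overlap. Their summed level was 131 to 317 FPKM in the Trim11+/+ tumours and 59.1 to 90.4 in the Trim11+/- tumours, and Krt5 alone was 29.2 to 105 against 7.14 to 18.8. Of 7 fibroblast markers, all 7 had a lower mean and 0 were separated between genotypes, with sums of 152 to 315 and 126 to 230 FPKM. All 5 macrophage markers had a lower mean and 2 were separated, with sums of 269 to 394 and 227 to 318. Endothelial sums were 12.3 to 19.1 and 10.8 to 17.5 FPKM, and 4 of 5 markers had a lower mean. The sum of 5 luminal epithelial markers was 989 to 1217 and 910 to 1347 FPKM, and 4 of these 5 also had a lower mean. A lower mean was thus not particular to the basal, fibroblast and macrophage lists. No marker of these lists was at 0 in all tumours. In bulk tumour RNA, fewer cells of a type and less RNA per cell cannot be told apart, and the part of these cells in the levels of Vim, Snai2, Fn1, Zeb1 and Zeb2 was not tested.

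The remaining marker sets were low or uneven. T cell markers summed to 1.35 to 2.39 FPKM in the Trim11+/+ tumours and 0.664 to 1.30 in the Trim11+/- tumours. All 4 had a lower mean in Trim11+/- tumours and 1 of 4, Cd4, was separated. B cell markers summed to at most 0.575 FPKM, and 0 of 3 had a lower mean. Adipocyte markers ranged from 3.50 to 66.6 FPKM and skeletal muscle markers from 1.64 to 222.9 over the tumours, and the genotypes overlapped in both. In each of these 2 sets 3 of 4 markers had a lower mean.

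**Figure D4:**
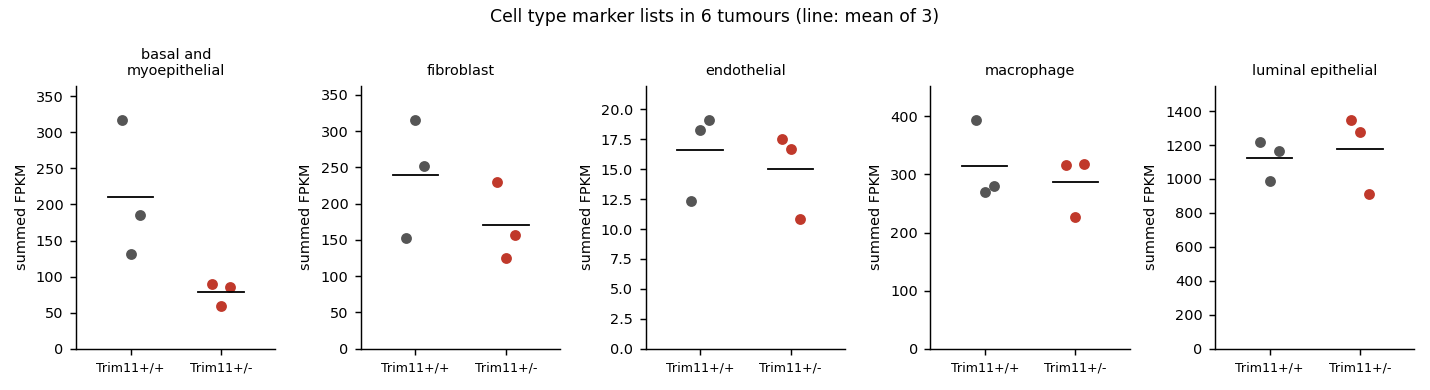
Summed FPKM of marker genes of 5 cell types (vertical axes, each starting at 0) in 3 Trim11+/+ and 3 Trim11+/- tumours, 1 point per tumour with a line at the mean. The basal and myoepithelial sums are 59.1 to 90.4 in Trim11+/- and 131 to 317 in Trim11+/+ tumours, and the other 4 lists overlap.

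Snai2 had the widest range of the members over the tumours on log2(FPKM + 1), at 1.33. Of 2861 genes with a mean of at least 1 FPKM and a log2 range of at least 1, the 5 most like it by Pearson r over the 6 tumours were Gm44264 (0.980), the R-spondin receptor Lgr6 (0.977), Gm16174 (0.961), the death-associated kinase Dapk1 (0.950) and Rpl30-ps10 (0.945). Lgr6 was 16.4, 14.1 and 15.7 FPKM in the Trim11+/+ tumours and 12.3, 7.29 and 13.2 in the Trim11+/- tumours. Its lowest value was in the same tumour as that of Snai2, which the choice by likeness favours.

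The wider pathway was read from 6 lists. Of 25 mesenchymal matrix and cytoskeleton genes, 24 were tested in tumours, 22 had a difference below 0, 5 had an unadjusted p under 0.05 and all 5 of these were lower, where 3.29% of all genes were lower by this rule, with a median difference of -0.46 beside 0.00 over all genes. None passed after adjustment, and the list shares Col1a1, Col3a1, Thy1 and Pdgfrb with the fibroblast markers and Acta2 with the basal and myoepithelial markers, whose sums were lower in every Trim11+/- tumour. The largest of the 5 were Mmp14, a membrane-bound matrix metalloproteinase, at 12.1 ± 3.70 FPKM in Trim11+/- and 20.2 ± 2.11 in Trim11+/+ tumours (SD, n = 3 each), Fbn1, the microfibril protein fibrillin, at 5.52 ± 0.835 and 9.09 ± 1.51, and Sparc, a collagen-binding matrix protein, at 117 ± 20.1 and 175 ± 21.4. Their differences were -0.73, -0.63 and -0.58 (adjusted p = 0.634, 0.598 and 0.634). All 3 were separated between genotypes, which their choice by p and size of difference favours. Of the 24 genes tested 4 were lower without overlap, where 6.78% of all genes were, and 0 were higher without overlap.

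In the lines 19 genes of this list were tested. With the TRIM11 guide 4 were higher at an unadjusted p under 0.05 and 0 were lower, where 5.19% and 5.48% of all genes were, and the median difference was 0.16. In DKD against KDM5C-KD 4 were higher and 0 lower, where 5.86% and 5.8% of all genes were, and the median was 0.31. THBS1, thrombospondin, was 1087 to 1499 FPKM in the 4 lines with a TRIM11 guide and 506 to 721 in the other 3 (difference 1.03, standard error 0.17, adjusted p = 0.448). TNC, the matrix protein tenascin, overlapped for the guide, at 2.45 to 11 against 2.42 to 3.09 FPKM, and was 6.17 and 11 in DKD against 2.42 and 2.96 in KDM5C-KD (difference 1.33, adjusted p = 0.379). For the KDM5C guide 1 of the 19 was lower, against 5.18% of all genes, namely LOX, a collagen cross-linking enzyme, at 10.6 to 15.6 against 15.1 to 23.1 FPKM (difference -0.47, adjusted p = 0.403).

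Of 20 epithelial junction and keratin genes, 18 were tested in the lines, and 15 had a difference above 0 for the KDM5C guide, with a median of 0.21 beside 0.00 over all genes. Of the 18, 2 had an unadjusted p under 0.05, a share close to the 11.1% of all genes that did. PKP3, a desmosomal plakophilin, was 13.9 to 19.7 FPKM with the guide and 7.35 to 8.27 without (difference 0.91, standard error 0.11, adjusted p = 0.199). KRT18, a simple epithelial keratin, was 390.0 to 440.5 against 296 to 342 FPKM (difference 0.40, adjusted p = 0.383). Like EPCAM, PKP3 and KRT18 did not overlap between lines with and without the guide. Of the 18 genes of the list 3 were higher without overlap, where 5.64% of all genes were, and 0 were lower without overlap. For the TRIM11 guide 1 of 18 was lower, against 5.48% of all genes, the tight junction protein OCLN, at 2.43 to 4.59 against 5.0 to 8.03 FPKM (difference -0.72, adjusted p = 0.448).

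In DKD against KDM5C-KD 4 of 18 genes of this list had an unadjusted p under 0.05, against 11.7% of all genes, and 3 of the 4 were lower. ST14, the serine protease matriptase, was 0.614 and 0.855 FPKM in DKD against 2.74 and 3.77 in KDM5C-KD (difference -1.29, adjusted p = 0.379), OCLN was 3.21 and 3.27 against 5.0 and 8.03 (difference -0.80, adjusted p = 0.403), and ITGB4, the integrin of hemidesmosomes, was 67.6 and 101.8 against 28.6 and 46.3 FPKM (difference 1.17, adjusted p = 0.379). In tumours all 20 were tested, the median difference was -0.09, and 2 of 20 had an unadjusted p under 0.05, against 6.94% of all genes. Mal2, a transport protein of polarised cells, was 24.5 to 30.3 FPKM in Trim11+/- and 19.8 to 22.1 in Trim11+/+ tumours (difference 0.34, adjusted p = 0.647), and the claudin Cldn7 was 78.7 to 81.0 against 89.1 to 98.5 (difference -0.22, adjusted p = 0.707).

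**Figure D5:**
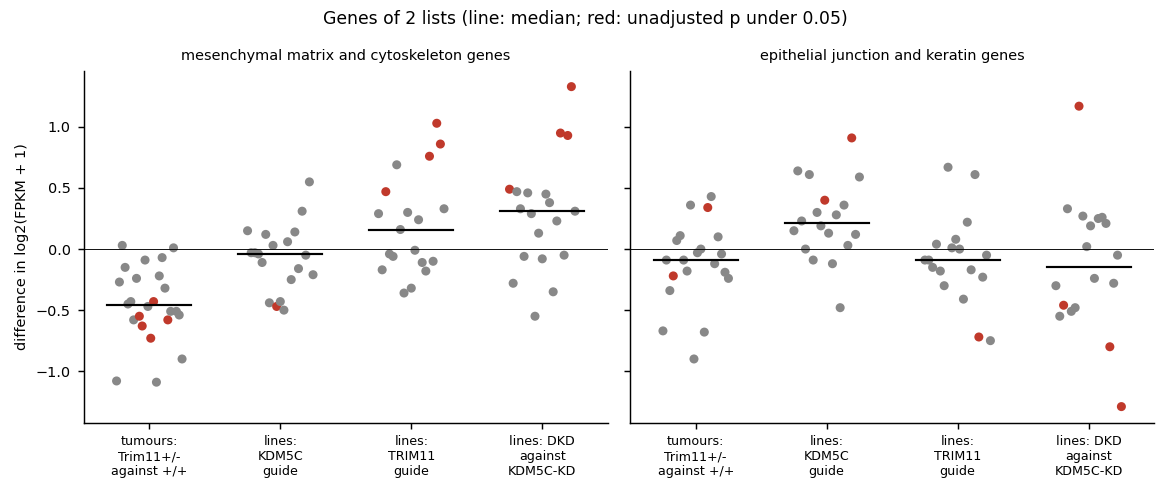
Difference in log2(FPKM + 1) of each tested gene (points) of 2 lists in the 4 comparisons, in red where the unadjusted p is under 0.05, with a line at the median. The mesenchymal matrix and cytoskeleton genes have medians of -0.46 in tumours and 0.31 in DKD against KDM5C-KD, and the epithelial junction and keratin genes have a median of 0.21 for the KDM5C guide.

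Of 9 epithelial identity regulators, all 9 were tested in tumours and 3 in the lines. In tumours 1 of 9 was higher at an unadjusted p under 0.05, against 3.65% of all genes. Ovol2, a repressor of Zeb1, was 3.35 to 4.47 FPKM in the Trim11+/- tumours and 1.73 to 2.75 in the Trim11+/+ tumours (difference 0.61, standard error 0.17, unadjusted p = 0.009, adjusted p = 0.634). KLF5 was 12.8 and 13.1 FPKM in DKD against 16.9 and 22.6 in KDM5C-KD (difference -0.56, adjusted p = 0.379). Of 12 other EMT transcription factors 6 were tested in each set. In tumours 0 of 6 had an unadjusted p under 0.05, with a median of -0.21. In the lines 2 of 6 did for the KDM5C guide and 3 of 6 for the TRIM11 guide, against 11.1% and 10.7% of all genes. For DKD against KDM5C-KD 1 of 6 did, against 11.7%. SOX4 was 0.464 to 2.78 FPKM with a KDM5C guide and 1.08 to 7.51 without (difference -0.99, adjusted p = 0.414). By TRIM11 guide it was 0.464 to 3.00 against 1.23 to 7.51 (difference -1.0, adjusted p = 0.448). The highest value, 7.51 FPKM, was that of Control, the only library in both groups without a guide. DKD against KDM5C-KD, which leaves Control out, gave a SOX4 difference of -0.63 (unadjusted p = 0.195 by limma). TCF3, an E-box binding factor, differed by 0.28, 0.34 and 0.37 for the KDM5C guide, the TRIM11 guide and DKD (adjusted p = 0.427, 0.448 and 0.427). Its values overlapped for both guides. In DKD it was higher than in KDM5C-KD without overlap, where 21.3% of all genes were. FOXQ1 differed by -0.44 for the TRIM11 guide (adjusted p = 0.463), also with overlap.

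Of 16 TGF-beta pathway genes 15 were tested in each set. In tumours 0 had an unadjusted p under 0.05 and the median difference was 0.02. For the KDM5C guide 2 of 15 did, near the share of 11.1% over all genes. TGFBR1, a receptor kinase, was 18 to 26.1 FPKM with the guide and 32.1 to 50.6 without (difference -0.82, standard error 0.18, unadjusted p = 0.00281, adjusted p = 0.383), and the target gene ID1 was 35.8 to 53.6 against 24.0 to 41.4 (difference 0.55, adjusted p = 0.434). For the TRIM11 guide and for DKD against KDM5C-KD 0 of 15 did. Of the catenins and their partners 4 were tested in tumours and 3 in the lines, and 0 had an unadjusted p under 0.05 in any of the 4 comparisons.

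The libraries did not mark strand. Where VIM, ZEB1 or ZEB2 shares bases with its antisense gene (VIM-AS1, ZEB1-AS1 or ZEB2-AS1), reads there cannot be assigned to either gene. The extent of such overlap was not examined.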

How the data were processed

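Poly(A) RNA of 7 MDA-MB-231 lines and 6 MMTV-PyVT tumours was sequenced as paired reads with a kit that does not keep strand. Per the labels and methods, the authors trimmed reads with Cutadapt, mapped them with HISAT2 to hg19 or mm10, and deposited FPKM values computed by Cufflinks, 1 column per library. The submitters' processing notes also name Bowtie 0.12.2. Rows that share a symbol were reduced to that with the highest mean, and 27 symbols turned into dates were not used.

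In tumours 98.8% of 28790 genes were whole reads within 0.01 once multiplied by a GENCODE exon length and library total, which gave the depth. Zeb2 needed a length of 20203 bases, found by this search, in place of 19942. The lines gave no read numbers.

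The 10 members and the lists were chosen with earlier results of these data known. Groups came from GEO titles and treatments. Genes averaging 0.5 FPKM or more were tested (17328 mouse, 12636 human, each with 9 members) on log2(FPKM + 1) by limma 3.58.1 in R 4.3.3 with a trend and Benjamini-Hochberg adjustment. The fits were tumour genotype, both guides over 7 lines, and DKD against KDM5C-KD over the 6 knockdown lines. Against the single Control both lines had to differ 1.5-fold, with no p. From each list, genes with an adjusted p under 0.05 were named or, with none, up to 3 with the largest difference among those with a mean of at least 1 FPKM and an unadjusted p under 0.05. One gene that this rule names is not reported here. CD24 was in the list of genes that describe the line, and it was singled out beside CDH2 after its values were seen. The fits were tested on simulated data. Python 3.11.15, numpy 2.4.6, pandas 2.3.3, scipy 1.17.1 and matplotlib 3.10.9 were used. Alternatives were other pseudocounts, filters, scaling, no trend, a replicate block, left-out libraries, an interaction term, and limma voom on the recovered reads, the last chosen after seeing the data (0 of 16837 genes with an adjusted p under 0.05). Same-numbered tumours did not deviate together in every pair. In the lines the correlations of same-numbered libraries were 0.0873 to 0.371, and TRIM11-KD and DKD lines of the same number share a TRIM11 guide. No pairing is stated, so numbers were treated as pairs only in the replicate block.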

Additional observations from a re-analysis of the deposited data

Results flagged for a closer look

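VIM and SNAI2 lay on opposite sides of their controls in the 2 sets. In the lines both TRIM11-KD libraries were above the single Control, with ratios of 1.02 and 1.09 for VIM (mean 1.05) and of 1.03 and 1.85 for SNAI2 (mean 1.44, which rests on TRIM11-KD2). This was not particular to the TRIM11 guides, because Control was the lowest of all 7 lines for both genes. The KDM5C-KD ratios were 1.23 and 1.09 for VIM and 1.47 and 1.93 for SNAI2. TRIM11 mRNA was not lower than Control in the library labelled TRIM11-KD1. Over all 7 lines the TRIM11 guide gave differences of 0.06 for VIM (unadjusted p = 0.581) and 0.21 for SNAI2 (unadjusted p = 0.459) by limma, and DKD against KDM5C-KD gave 0.05 (unadjusted p = 0.737) and 0.06 (unadjusted p = 0.881), so neither passed. In tumours all 3 Trim11+/- values were below all 3 Trim11+/+ values, with ratios of 0.558 for Vim and 0.600 for Snai2, and neither passed adjustment. The tables were normalized separately, and the difference between the sets was not tested.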

How the results depend on the processing

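No member had an adjusted p under 0.05 under any alternative, and the lowest adjusted p over them was 0.107. For tumours, the members with an unadjusted p under 0.05 were 5 without the trend and 1 to 2 with a tumour left out, beside 3 in the report, and Cdh1 ranged from -0.11 to 0.04 with a tumour left out. For the KDM5C guide the count was 1 to 3 with a library left out, and differences ranged from -0.24 to 0.13 for FN1, -0.07 to 0.45 for CDH2 and -0.34 to 0.16 for SNAI1. For the TRIM11 guide the count was 2 without both guide 1 libraries and 0 to 1 with a library left out, and differences ranged from -0.71 to 0.07 for CDH2 and -0.25 to 0.16 for SNAI1. For DKD against KDM5C-KD the count was 3 with KDM5C-KD2 alone, where SNAI2 was at -0.13, 0 with no filter or with only the 4 libraries compared, and 0 to 3 with a library left out. Differences then ranged from -0.25 to 0.44 for CDH1, -1.45 to 0.04 for CDH2, -0.57 to 0.10 for SNAI1, -0.37 to 0.48 for SNAI2 and -0.04 to 0.13 for VIM. Against Control, the mean of both lines gave 3 members higher and 1 lower in KDM5C-KD and 2 higher in DKD. A single line gave 2 higher in TRIM11-KD, 1 to 3 higher and 0 to 2 lower in KDM5C-KD, and 1 to 3 higher and 0 to 1 lower in DKD. The cause was not tested.

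The replicate block, with Control left out of the lines, gave 2 members with an unadjusted p under 0.05 in tumours, where Fn1 no longer had one. It gave 1 for the KDM5C guide, with FN1 at 0.13 and CDH2 at -0.07. For the TRIM11 guide and for DKD against KDM5C-KD it gave 2, FN1 and ZEB1. Without Control these are the same fit, so this is 1 result. Same-numbered libraries correlated by -0.33, 0.0385 and -0.13 in tumours and by 0.0873, 0.371 and 0.273 in the lines, and Trim11+/+ 1 correlated best with Trim11+/- 3. The depth of the lines is unknown, and tumour values under 1 FPKM rest on 17 to 206 reads.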
